A study of Mus musculus with 194 samples.

Results

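The loci described here are those of 9 mouse genes for growth factor receptors, their ligands and a regulator of such receptors, named for their known roles in glial cells: Ptn, Mdk, Ptprz1, Fgfr1, Fgfr2, Fgfr3, Ntrk2, Ednrb and Lrig1. They were taken by name from the 21631 protein-coding loci of GRCm38 (chromosome X and chromosomes 1 to 19), as 9 of that number, and each locus is the gene body with 10 kb on each side. The study used calling cards in the mouse brain, a method in which a transposase carried by adeno-associated virus (AAV) inserts a transposon at TTAA sequences and the insertion is later read by sequencing. A transposase alone marks chromatin in which it can insert, and one tethered to a transcription factor also marks where that factor sits. An insertion count is therefore not a level of RNA. The level used below is insertions at a locus per 1000000 insertions of the animal, written IPM.

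All animals were injected with AAV at the age of 0 to 1 days. The virus given to C57bl6J mice (2) needs no Cre recombinase. Syn1Cre (6) and GFAPCre (6) mice are named for a Cre line, synapsin I being a gene of neurons and glial fibrillary acidic protein (GFAP) a protein of astrocytes whose promoter can also be active in cells that later become neurons. Syn1CreNeg (6) and GFAPCreNeg (6) are the Cre-negative groups of those lines. Frontflip_GFAPCre (3) and Frontflip_GFAPCreNeg (3) carry a construct labelled Frontflip. Syn1Cre_SP1_P10 (3) and Syn1Cre_SP1_P28 (4) are Syn1Cre mice whose labels add SP1, a transcription factor that binds GC-rich promoter sequence, and P10 or P28, taken to mean an age of 10 or 28 days after birth. In the BrokenHeart group (3) insertions were read from DNA by inverse PCR with 20 barcoded transposons. In every other group they were read from RNA made by self-reporting transposons, from cortex cut into 10 pieces or, in Rbp4Cre_TRAP (4), from forebrain RNA labelled Rbp4 TRAP. Rbp4Cre is a line used for deep-layer cortical neurons, and TRAP usually stands for purification of RNA on tagged ribosomes of one cell type. N2a is a mouse neuroblastoma line, and its 3 experiments were deposited as 1 table. The labels name neither the transposase nor the SP1 construct, and give no age for the groups without P10 or P28 and no sex.

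Pleiotrophin (Ptn) and midkine (Mdk) are related heparin-binding growth factors, and Ptprz1 is a receptor tyrosine phosphatase that binds pleiotrophin. Fgfr1, Fgfr2 and Fgfr3 are receptor tyrosine kinases for fibroblast growth factors. Ntrk2 encodes TrkB, the receptor of brain-derived neurotrophic factor, which has a full-length form prominent in neurons and a truncated form prominent in astrocytes. Ednrb is the endothelin B receptor, a G protein-coupled receptor abundant in astrocytes, and Lrig1 is a transmembrane protein that dampens receptor tyrosine kinases of the ErbB family and others. None of these genes is confined to glia: Ntrk2 and Fgfr1 are well known in neurons too.

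The yield of insertions differed greatly between groups. An animal had 1545951 to 2186743 insertions in C57bl6J, 443158 to 1364948 in Syn1Cre, 600443 to 1505413 in GFAPCre, 97519 to 556145 in Syn1CreNeg and 208057 to 597230 in GFAPCreNeg. The other groups lay lower: 160631 to 205559 in Frontflip_GFAPCre, 108965 to 577609 in SP1 at P28, 86842 to 95331 in SP1 at P10, 42511 to 98197 in BrokenHeart, 24408 to 57014 in Rbp4Cre_TRAP and 2341 to 9601 in Frontflip_GFAPCreNeg. The N2a table had 806653. A yield of 24408 puts 1 insertion at about 41.0 IPM, so the small loci are barely resolved in Rbp4Cre_TRAP and not at all in Frontflip_GFAPCreNeg.

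Of the animals, 3 stood apart and touch most results below. Syn1Cre animal 5 had the lowest yield of its group and the highest level at 7 of the 9 loci. The same held for GFAPCre animal 3 and GFAPCreNeg animal 6, each at 8 of 9 loci, and not for Syn1CreNeg animal 2, which had the lowest yield of its group and the highest level at none. At 10 astrocyte marker genes (Gfap, Aqp4, Slc1a2 and others) the summed level was 2096 IPM in Syn1Cre animal 5, against 683 to 901 in the other 5 Syn1Cre animals. At 10 neuron marker genes it was 2320 in that animal, against 2431 to 2746 in the others. GFAPCre animal 3 had an astrocyte sum of 1745 against 857 to 1509 in its group, and GFAPCreNeg animal 6 had 3172 against 1537 to 1868. The part of yield or of these marker levels in the results was not tested, and calls that change without 1 of these animals are given both ways.

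**Figure D1:**
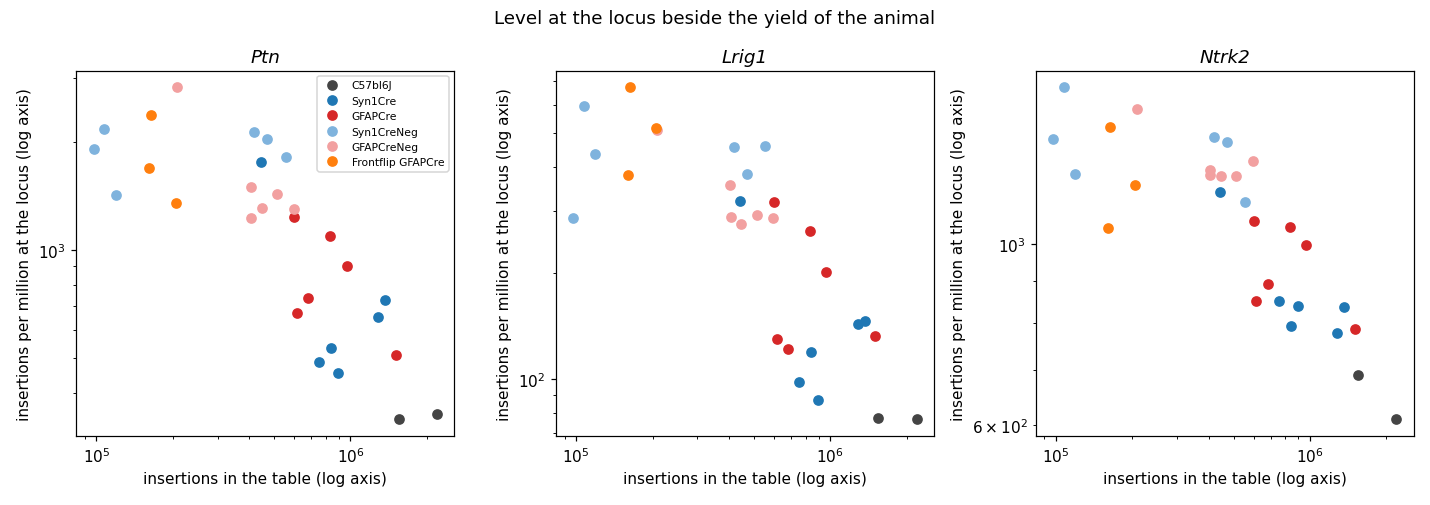
Level at the Ptn, Lrig1 and Ntrk2 loci (IPM, log axis) against the number of insertions in the animal's table (log axis), with 1 point per animal of 6 groups. Syn1Cre animal 5, the leftmost Syn1Cre point with 443158 insertions, lies among the Cre-negative animals at Ptn with 1760 IPM.

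Below are 4 of the gene starts in GRCm38.p6 as RefSeq gives them (RefSeq has a start with sequence for 7 of the members), each 300 bases read 5′ to 3′ in the direction of the gene, 250 before the start and 50 after. They are shown because the SP1 results turn on Lrig1, Ntrk2 and Ptn, and because the Ptprz1 start holds an insertion site used in most animals. Capitals mark the SP1-type GC box GGGCGG or its reverse complement CCGCCC and the insertion tetramer TTAA. Lrig1 is at 6:94700096-94700395 on the minus strand, Ptprz1 at 6:22875252-22875551 on the plus strand, Ntrk2 at 13:58806319-58806618 on the plus strand and Ptn at 6:36810130-36810429 on the minus strand.
Lrig1: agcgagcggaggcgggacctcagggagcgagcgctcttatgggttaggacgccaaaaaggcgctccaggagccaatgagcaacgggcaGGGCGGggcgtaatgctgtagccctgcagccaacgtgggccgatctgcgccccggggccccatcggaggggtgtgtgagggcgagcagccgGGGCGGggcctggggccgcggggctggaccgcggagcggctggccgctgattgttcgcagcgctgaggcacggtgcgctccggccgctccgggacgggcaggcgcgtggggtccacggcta
Ptprz1: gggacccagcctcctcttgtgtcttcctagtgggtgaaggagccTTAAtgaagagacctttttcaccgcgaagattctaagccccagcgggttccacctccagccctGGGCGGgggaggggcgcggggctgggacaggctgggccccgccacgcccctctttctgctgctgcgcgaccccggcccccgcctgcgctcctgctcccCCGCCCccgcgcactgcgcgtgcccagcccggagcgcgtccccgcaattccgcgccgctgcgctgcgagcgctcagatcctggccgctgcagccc
Ntrk2: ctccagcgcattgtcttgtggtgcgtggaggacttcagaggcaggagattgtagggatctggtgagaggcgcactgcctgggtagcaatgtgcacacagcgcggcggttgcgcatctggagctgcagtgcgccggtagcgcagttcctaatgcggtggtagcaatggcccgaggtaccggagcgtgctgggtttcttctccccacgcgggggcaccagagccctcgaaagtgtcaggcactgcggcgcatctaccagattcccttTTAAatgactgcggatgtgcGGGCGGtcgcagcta
Ptn: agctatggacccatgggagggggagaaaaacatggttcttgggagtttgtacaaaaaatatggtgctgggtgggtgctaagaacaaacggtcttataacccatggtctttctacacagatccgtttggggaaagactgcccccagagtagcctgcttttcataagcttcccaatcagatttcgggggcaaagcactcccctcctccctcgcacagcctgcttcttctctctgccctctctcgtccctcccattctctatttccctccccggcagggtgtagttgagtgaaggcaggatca
The GC box occurred 2 times at Lrig1 and at Ptprz1, 1 time at Ntrk2 and not at Ptn. Of all 21045 RefSeq promoters of this length, 46.7% held it on either strand and 48.1% held a TTAA. The Lrig1 and Ptn sequences hold no TTAA, the tetramer at which insertions were recorded. The TTAA of Ptprz1 lies 206 bases before the start and carried insertions in 37 of the 46 animals.

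Ptn and Ntrk2 held most of the insertions at the 9 loci: by group mean, Ptn led in both Cre-negative groups, both Frontflip groups, both SP1 groups and N2a, and Ntrk2, on a longer locus, in Syn1Cre, GFAPCre, C57bl6J, BrokenHeart and Rbp4Cre_TRAP. Ptn lies at 6:36714924-36810179, and its locus spans 115 kb. Per kb, Ptn was the densest of the 9 in every group except Rbp4Cre_TRAP, where Ntrk2 was (8.25 against 6.79 times the median locus). It had 21.1 times the median locus in Syn1Cre, with 99.9% of loci below it, and 60.9 times the median in Syn1CreNeg. The Syn1Cre animals gave 455, 593 and 1760 IPM as the lowest, median and highest. In Syn1CreNeg the range was 1419 to 2168. The Syn1Cre animals other than animal 5 lay between 455 and 725, below every Cre-negative animal. GFAPCre gave 510 to 1237 and GFAPCreNeg 1230 to 2831, where animal 6 was high and the other 5 lay at or below 1496. C57bl6J was low and tight, at 338 and 349, and Rbp4Cre_TRAP lower still, at 175, 238, 175 and 205. Frontflip_GFAPCre, with 1348, 1693 and 2374, lay in the range of the Cre-negative animals, and BrokenHeart, with 429, 367 and 682, near the Syn1Cre animals. The N2a table held 156 insertions at Ptn, 193 IPM and 5.15 times its median locus, below the 10.1 times in C57bl6J.

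Mdk, the other ligand, was at the opposite end. Its locus at 2:91929805-91932297 with flanks is only 22.5 kb long, and just 10.3% of its Syn1Cre insertions fell in the gene body, which is 11.1% of the locus. The flanks belong to other genes: Chrm4, a muscarinic receptor gene, covers 7.65 kb of it and Dgkz, a diacylglycerol kinase gene, 9.48 kb. Levels were 8.06, 13.3 and 21.3 (lowest, median and highest) in Syn1Cre, 0 to 10.8 in Syn1CreNeg with 2 animals at 0, 7.97 to 13.01 in GFAPCre and 5.02 to 15.7 in GFAPCreNeg. These ranges overlapped, and Mdk passed the low-count filter in 3 of the 13 comparisons, with no call. It is the only member that was not lower, by group mean, in Syn1Cre than in Syn1CreNeg.

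The locus of Ptprz1, at 6:22875315-23052916, carried 139, 213 and 496 IPM (lowest, median and highest) in Syn1Cre and 496, 635 and 726 in Syn1CreNeg. Only Syn1Cre animal 5 just reached the Cre-negative range. In GFAPCre the values were 229, 361 and 533, and in GFAPCreNeg 428, 503 and 865. C57bl6J gave 177 and 203, BrokenHeart 172, 102 and 118, and Rbp4Cre_TRAP 87.7, 79.5, 25.0 and 123, all below the Syn1Cre median. Frontflip_GFAPCre had 511, 417 and 710, SP1 at P28 440, 441, 522 and 260 and SP1 at P10 380, 557 and 189, which spread across the ranges of both the Cre and the Cre-negative groups. The N2a table had 1 insertion in the whole 198 kb.

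Ednrb, at 14:103814615-103844508, showed the same arrangement. Syn1Cre animals gave 43.7, 64.5 and 228 IPM (lowest, median and highest), and Syn1CreNeg animals 84.0, 203 and 323. The Syn1Cre value of 228 was again animal 5, and the other 5 overlapped the Cre-negative range only at its lower edge. GFAPCre gave 69.8, 96.8 and 162 and GFAPCreNeg 171, 193 and 389, and these groups did not overlap. C57bl6J had 33.0 and 38.9, and in Rbp4Cre_TRAP 2 animals had no insertion and the others 17.5 and 19.9. BrokenHeart, at 120, 50.9 and 70.6, lay among the Syn1Cre animals. Frontflip_GFAPCre (195, 131 and 196), SP1 at P28 (194, 211, 298 and 91.8) and SP1 at P10 (138, 223 and 73.4) overlapped the Syn1Cre range, and only P28 had an animal above it. N2a had none, which allows up to 3.72 IPM (3 counts, counting error only).

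Lrig1 (6:94604529-94700298) gave 98.3, 119, 87.4, 146, 320 and 143 IPM in Syn1Cre animals 1 to 6, and 595, 287, 437, 460, 455 and 383 in Syn1CreNeg. Without animal 5, the highest Syn1Cre value was below the lowest Cre-negative one. GFAPCre animals gave 122 to 318 and GFAPCreNeg 275 to 510, overlapping through 1 GFAPCre animal. The 3 Frontflip_GFAPCre animals, at 516, 380 and 673, were above all 6 GFAPCre animals. C57bl6J gave 77.6 and 76.8, and Rbp4Cre_TRAP 105, 59.6, 49.9 and 0, mostly below the lowest Syn1Cre animal. BrokenHeart, at 189, 204 and 259, lay within the Syn1Cre range, which animal 5 extends to 320, and below every Syn1CreNeg animal, and N2a had 60.7 IPM. Slc25a26, a mitochondrial carrier gene, overlaps the 3′ end of the gene body and 10.1 kb of the locus.

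Among the receptor tyrosine kinases, Ntrk2 (13:58806472-59133970, a locus of 347 kb) had levels of 778, 838 and 1158 in Syn1Cre and 1124, 1338 and 1554 in Syn1CreNeg. The groups overlapped through Syn1Cre animal 5. GFAPCre gave 787, 946 and 1068 and GFAPCreNeg 1211, 1223 and 1461, with no overlap. With Frontflip_GFAPCreNeg left out, Ntrk2 varied least of the 9 among mouse groups relative to its mean. C57bl6J had 690 and 610, Rbp4Cre_TRAP 656 to 894 and BrokenHeart 772 to 847. Frontflip_GFAPCre had 1182, 1046 and 1389, SP1 at P28 1044, 973, 978 and 668 and SP1 at P10 461, 702 and 755, the last being below every Syn1Cre animal. In N2a it was nearly empty, with 8 insertions or 9.92 IPM.

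Fgfr1 (8:25518759-25575718) ranged from 41.4 to 94.8 IPM in Syn1Cre and from 91.7 to 158 in Syn1CreNeg, and it was the only receptor kinase with a sizeable N2a level, 103 IPM from 83 insertions. GFAPCre gave 50.5 to 99.9, GFAPCreNeg 66.7 to 135, C57bl6J 55.0 and 67.2, Frontflip_GFAPCre 87.6, 99.6 and 110 and BrokenHeart 85.8, 61.1 and 47.1, all overlapping or adjacent. Rbp4Cre_TRAP was lowest, with 52.6, 19.9, 0 and 41.0 from 5 insertions in all.

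Fgfr2 (7:130162451-130266808) departed from the other loci. It was 43.7 to 51.3 in Syn1Cre, 30.8 to 82.7 in Syn1CreNeg, 19.5 to 48.3 in GFAPCre, 40.9 to 76.9 in GFAPCreNeg and 43.3 and 45.7 in C57bl6J, so that neither Cre nor line set it far apart. Rbp4Cre_TRAP, low at most members, had 17.5, 39.7, 74.9 and 41.0 here, N2a had no insertion, and it was highest in BrokenHeart, at 172, 122 and 118, above every animal of every other group except 1 of Frontflip_GFAPCreNeg, whose value is 1 insertion. These BrokenHeart levels rest on 27 insertions in all, of which 40.7% lay in the first 5 kb after the gene start. The third FGF receptor, Fgfr3 (5:33721724-33737068) was near the median locus per kb in Syn1Cre (1.06 times) and gave 7.03 to 22.6 IPM there and 8.40 to 37.2 in Syn1CreNeg. GFAPCre gave 8.13 to 23.3, GFAPCreNeg 7.80 to 43.3 and Frontflip_GFAPCre 29.2, 24.9 and 42.8, the last above all GFAPCre animals. Only 23.3% of its Syn1Cre insertions were in the gene body, which is 43.4% of the locus, and Letm1 covers 7.40 kb of the 3′ flank.

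**Figure D2:**
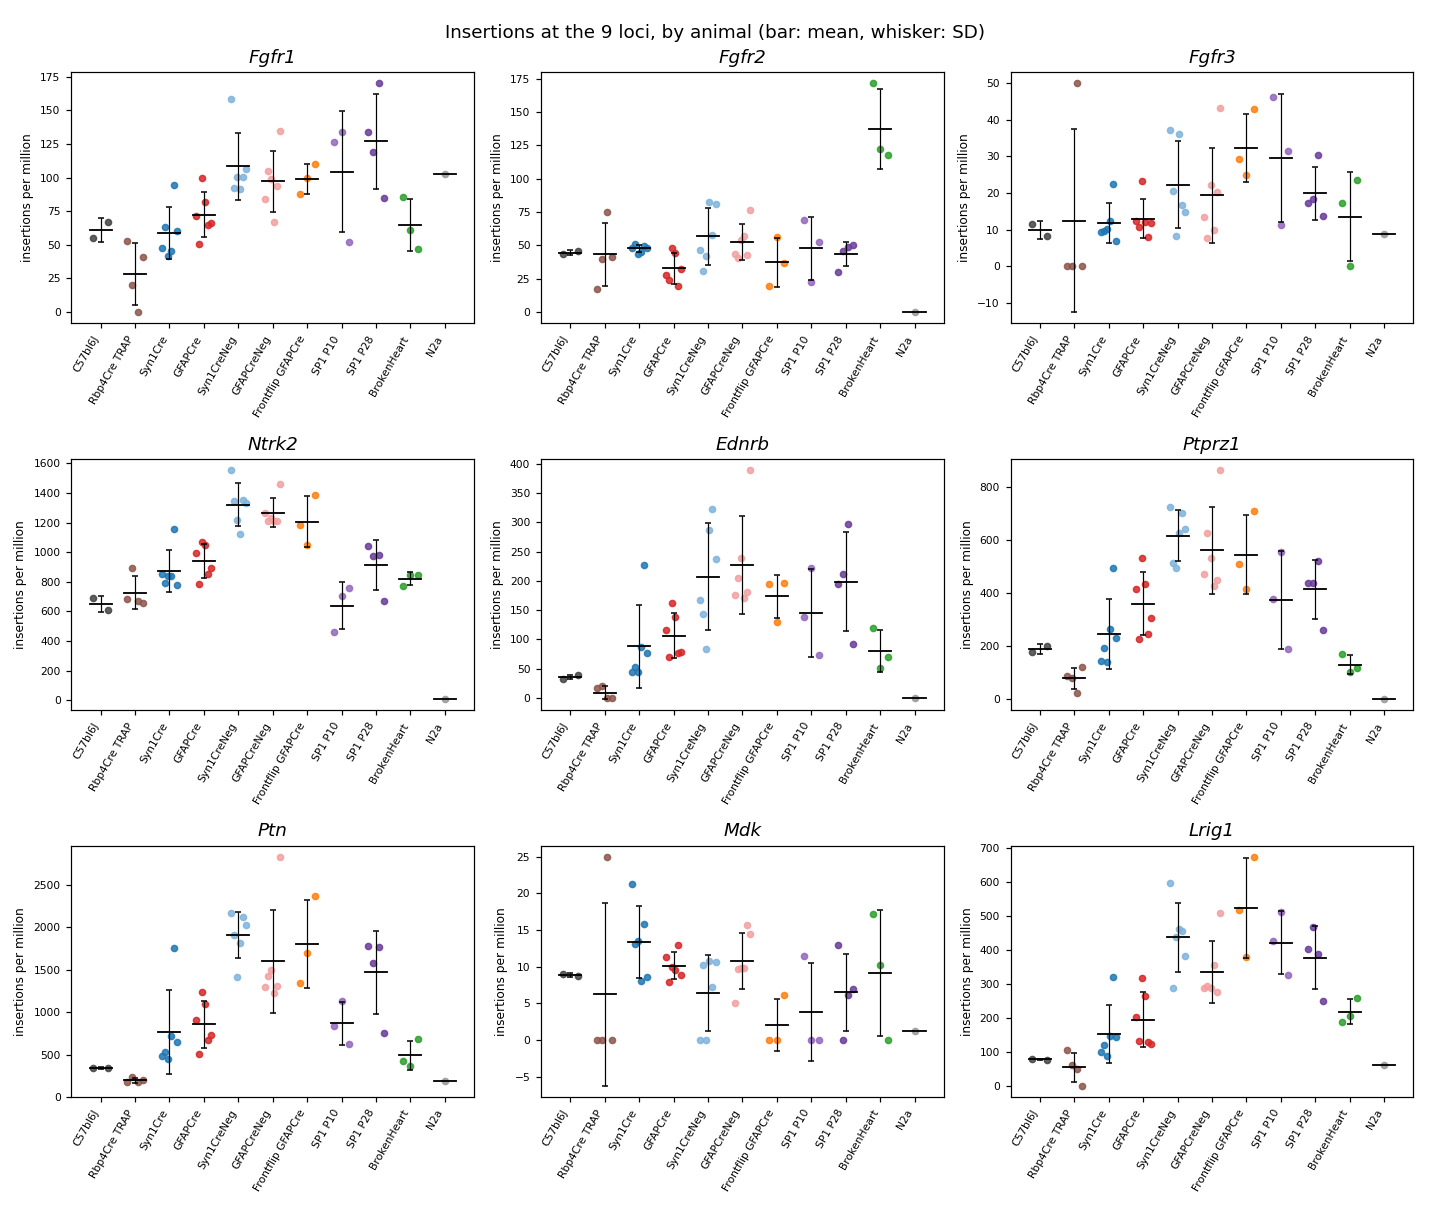
Insertions per 1000000 (IPM) at each of the 9 loci, 1 point per animal, for 10 mouse groups and the N2a table; horizontal bars are group means and whiskers SD (Frontflip_GFAPCreNeg, with at most 9601 insertions, is left out). Ptn, Ptprz1, Ednrb and Lrig1 are low in C57bl6J and Rbp4Cre_TRAP and high in the Cre-negative groups, while Fgfr2 is highest in BrokenHeart.

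The order of groups by mean was therefore shared by several loci, yet neighbours in that order were rarely distinct: for 80 of 90 neighbouring pairs of groups the animals' ranges overlapped, and for 76 the means differed by less than the larger SD. Across the 10 mouse groups other than Frontflip_GFAPCreNeg, Pearson's r between group means of log2(level + 1) was 0.96 for Ptn and Ptprz1, 0.95 for Ptn and Ednrb and 0.93 for Lrig1 and Ednrb. Fgfr2 gave values from -0.32 to 0.24 with the other 8 loci, and Mdk from -0.79 to 0.24. These are descriptions over 10 points that share differences in yield. By the same measure over all loci at or above the median level and more than 1 Mb away, the locus most like Ptn was Zhx2 (0.99), those most like Ednrb were Gpr37l1 and Rftn2 (0.99 each), and those most like Ptprz1 were Trim9 (0.99) and Plpp3 (0.98). For Lrig1 they were Capn9 (0.98) and Rftn2 (0.97), for Ntrk2 Maob and Nova1 (0.97 each), for Fgfr1 Mertk (0.98) and Scd2 (0.97), for Fgfr2 Elovl5 (0.98) and Cpq (0.97), for Fgfr3 Rgma (0.93) and B3gat2 (0.91), and for Mdk Gnaz and Apod (0.89 each). Mdk itself lies below the median level.

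Where does insertion at these loci differ with Cre? In Syn1Cre against Syn1CreNeg, 7 of the 9 members had enough insertions to test, and all 7 were lower in Syn1Cre by edgeR's quasi-likelihood test (adjusted p under 0.05 over all loci), where 17.5% of the 8613 loci tested were called lower and 31.1% in either direction. Lrig1 fell by 1.58 on the log2 scale (SE 0.228, adjusted p = 1.83e-05), Ednrb by 1.55 (SE 0.306, adjusted p = 4.14e-04), Ptprz1 by 1.39 (SE 0.225, adjusted p = 5.21e-05) and Ptn by 1.33 (SE 0.240, adjusted p = 1.53e-04). The changes were smaller for the kinases: Fgfr1 fell by 0.91 (SE 0.187), Ntrk2 by 0.61 (SE 0.121) and Fgfr2 by 0.53 (SE 0.175, adjusted p = 0.0230). The median over the 7 was -1.33, beside 0.02 over all loci tested. Without Syn1Cre animal 5 all 7 were called as well, where 3243 of 9449 loci were called. Ednrb was then at -1.97, Lrig1 at -1.89, Ptn at -1.77 and Ptprz1 at -1.70. A level is a share of an animal's insertions, so a lower level is not a lower number of insertions. Summed over animals, Lrig1 held 776 insertions in Syn1Cre and 770 in Syn1CreNeg, Ptn 3825 and 3439, and Ntrk2 4706 and 2260. Of the 7 loci only Ednrb held fewer in Syn1Cre, 433 against 449. Which cells held the insertions, and how many each held, cannot be told apart in these tissue pools.

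No sequencing pool held both of these groups, so pool and Cre cannot be told apart. The labels of animals 1 to 3 and of animals 4 to 6 are written in 2 different layouts, which both groups share. What a layout stands for is not given, and within each layout pool and Cre cannot be told apart either. Within animals 1 to 3 the difference was -2.15 for Lrig1, -1.91 for Ptn, -1.88 for Ptprz1, -1.49 for Ednrb, -1.22 for Fgfr1 and -0.75 for Ntrk2, and Fgfr2 turned to 0.22 (adjusted p = 0.79). Within animals 4 to 6, which include Syn1Cre animal 5, the differences were -1.14, -0.91, -0.99, -1.25, -0.66 and -0.42 for the same 6 loci and -0.60 for Fgfr2. Of the 7, Lrig1, Ptn, Ptprz1 and Fgfr1 stayed past the threshold in both layouts and in every other alternative run. Beside the members, 8 of 9 tested astrocyte marker loci were lower in Syn1Cre, among them Gja1 (-2.03), a gap junction gene, and Slc1a2 (-1.13), a glutamate transporter gene, and 2 of 5 tested oligodendrocyte lineage loci, Olig1 (-2.0) and Olig2 (-2.10). Of 8 neuron marker loci none was lower and 3 were higher: Rbfox3 (0.48) and the GABA synthesis genes Gad1 (2.00) and Gad2 (2.16). The summed astrocyte level was 683 to 2096 in Syn1Cre and 2197 to 2847 in Syn1CreNeg, with no marker at 0, and its part in the members' result was not tested.

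The GFAP line showed the same direction. In GFAPCre against GFAPCreNeg 6 of 7 tested members were lower, where 5.97% of 9203 loci were called lower and 8.15% in either direction. Ednrb fell by 1.04 (SE 0.189, adjusted p = 8.83e-04), Ptn by 0.89 (SE 0.181, adjusted p = 0.00235), Lrig1 by 0.75 (SE 0.186, adjusted p = 0.0108), Fgfr2 by 0.64 (SE 0.203, adjusted p = 0.0471), Ptprz1 by 0.62 (SE 0.170, adjusted p = 0.0207) and Ntrk2 by 0.42 (SE 0.0942, adjusted p = 0.00512). Fgfr1, at -0.41 (SE 0.160, adjusted p = 0.110), did not pass. Without GFAPCre animal 3 all 7 were called, Fgfr1 at -0.51 (adjusted p = 0.0246), and without GFAPCreNeg animal 6 the count was 5, without Fgfr2. Shares of all loci called in these fits are not given, so both counts are not read as results about the members. Of all called loci 26.8% were higher, and 13.3% with DESeq2's size factors. Animals of both groups did not overlap at Ednrb and Ntrk2, as at 3.43% of all loci. Some pools held animals of both groups, and in a fit of those animals that blocked on the pool no member passed (edgeR), although the differences were as large, for example -1.14 for Ednrb (adjusted p = 0.0511), -1.05 for Lrig1 (adjusted p = 0.0656) and -0.93 for Ptn (adjusted p = 0.0876). The pool fit held only part of the animals, and its share of all loci called is not given. Its count is thus not read as a result about the members. Among markers in the fit of all animals, 3 of 10 astrocyte loci were lower (Gja1 -1.20, Slc1a2 -0.72 and Glul -0.51) and none of 7 neuron loci was called (edgeR). Of 5 oligodendrocyte lineage loci Olig2 was lower (-0.80) and Mbp higher (0.46). The astrocyte sum was 857 to 1745 in GFAPCre and 1537 to 3172 in GFAPCreNeg, and its part was not tested here either.

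The Cre differences of both lines were compared directly by an interaction term. No member passed, with 0.692% of 10550 loci called (edgeR). The largest gaps were -0.82 at Lrig1 (SE 0.323, adjusted p = 0.254) and -0.75 at Ptprz1 (SE 0.310, adjusted p = 0.277), both lower in the Syn1 line. A larger effect in one line than in the other was thus not shown for any member. Between both Cre-negative groups, none of 7 tested members was called (edgeR; 2 at an unadjusted p under 0.05, none by DESeq2; 0.0426% of loci called), with Fgfr2 at 0.44 (adjusted p = 0.366) and Lrig1 at 0.41 (adjusted p = 0.196). Without GFAPCreNeg animal 6, Lrig1, Ptn and Ptprz1 passed the threshold, 3 of 7. How many of all loci passed in that fit is not given, so the count is not read as a result about the members. The few called loci split 66.7% higher with TMM, 100% with totals and 20% with DESeq2.

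**Figure D3:**
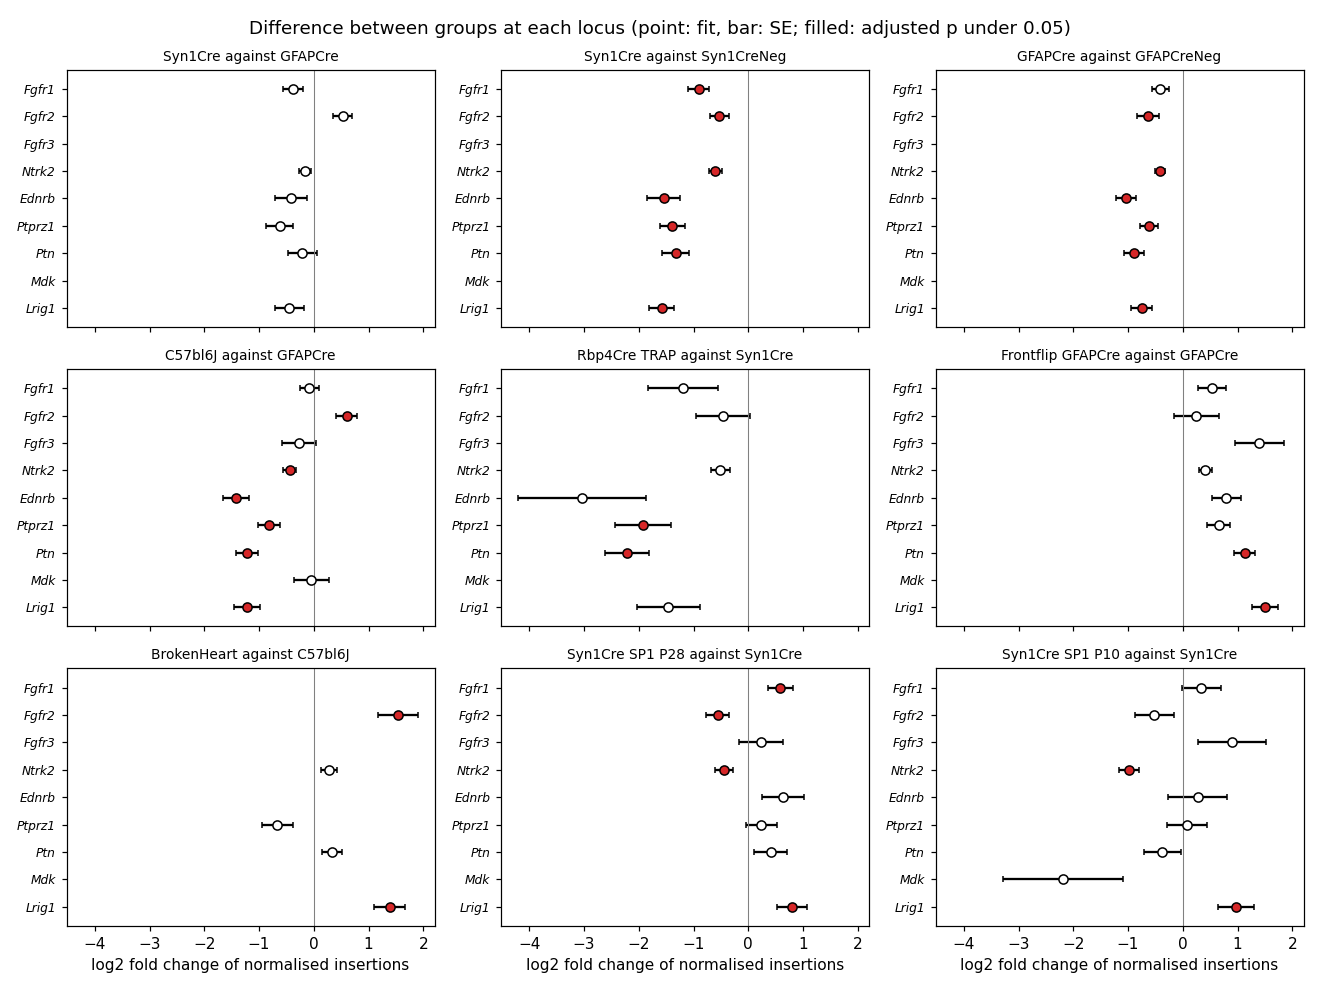
Difference between groups at each member locus as log2 fold change of normalised insertions (point) with its standard error (bar), in 9 comparisons; filled points have an adjusted p under 0.05, and a locus without a point had too few insertions to test. All 7 points of Syn1Cre against Syn1CreNeg are filled and below 0, and none is filled in Syn1Cre against GFAPCre. Panels share groups, so they are not independent of each other.

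Set against each other, Syn1Cre and GFAPCre did not separate at these loci. None of 7 tested members was called by edgeR (3 at an unadjusted p under 0.05, none by DESeq2), where 2.15% of 11553 loci were. Ptprz1 differed by -0.62 (SE 0.246, adjusted p = 0.186), Lrig1 by -0.44 (SE 0.259, adjusted p = 0.392), Ednrb by -0.41 (SE 0.297, adjusted p = 0.504) and Ptn by -0.21 (SE 0.263, adjusted p = 0.738). Fgfr2 leaned the other way, at 0.53 (SE 0.170, adjusted p = 0.106). Over the same animals 2 of 10 tested neuron loci were higher in Syn1Cre, the GABA synthesis genes Gad1 (1.80) and Gad2 (1.95). The median over the 10 was 0.17. None of 10 astrocyte and none of 6 oligodendrocyte lineage loci was called (edgeR). Of 3 microglia and endothelial loci P2ry12 was lower (-0.78). Erbb4, a neuregulin receptor gene, was higher (1.60).

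Syn1Cre animal 5 decided that count. Without it, 5 members were lower in Syn1Cre, as 835 of 11962 loci were then called: Ptprz1 (-0.91, adjusted p = 0.00156), Ednrb (-0.78, adjusted p = 0.0132), Lrig1 (-0.72, adjusted p = 0.0163), Ptn (-0.63, adjusted p = 0.0144) and Fgfr1 (-0.50, adjusted p = 0.0419). With Syn1Cre animals 1 to 3 alone, 6 members were called, and Ptprz1 reached -1.30. For that fit the share of all loci called is not given, so the count is not read as a result about the members. Leaving out GFAPCre animal 3 brought only Fgfr2 past the threshold, higher in Syn1Cre by 0.65 (adjusted p = 0.0447).

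C57bl6J mice, with Cre-independent viruses, were compared with both Cre lines. Against GFAPCre, 6 of 9 members were called, 5 lower and 1 higher, where 12.5% of 13256 loci were called and 5.49% lower. The lower ones were Ednrb (-1.42, SE 0.233, adjusted p = 1.30e-04), Ptn (-1.22, SE 0.207, adjusted p = 1.98e-04), Lrig1 (-1.22, SE 0.242, adjusted p = 9.72e-04), Ptprz1 (-0.82, SE 0.205, adjusted p = 0.00817) and Ntrk2 (-0.44, SE 0.123, adjusted p = 0.0163). Fgfr2 was higher (0.60, SE 0.196, adjusted p = 0.0411). With either C57bl6J animal left out the group held a single sample, and fewer members passed. Of 10 astrocyte marker loci 7 were lower, among them Aqp4 (-1.46), a water channel gene, and Slc1a3 (-1.43), and Erbb4 was higher (1.61). Of 7 oligodendrocyte lineage loci Olig1 (-1.85) and Olig2 (-1.73) were lower and Mog (0.98) higher, and of 10 neuron loci Gad1 (2.03) and Gad2 (2.53) were higher and Snap25 (-0.45) lower. Of 4 microglia and endothelial loci P2ry12 (-0.70) was lower and Flt1 (0.88) higher. The part of these marker differences was not tested. The astrocyte sum was 536 and 567.5 in C57bl6J, below all GFAPCre animals. Against Syn1Cre no member passed (edgeR; 3 at an unadjusted p under 0.05, none by DESeq2; 0.81% of loci called), with Ptn at -1.03 (adjusted p = 0.241), Ednrb at -1.02 (adjusted p = 0.292) and Lrig1 at -0.79 (adjusted p = 0.295). Without Syn1Cre animal 5 none was called either, where 250 of 15152 loci were, with Ptn at -0.59 (adjusted p = 0.0507). Both comparisons use the same 2 C57bl6J animals. Among all called loci the share that was higher went from 56.1% to 33.6% against GFAPCre, and from 97.4% to 68.5% against Syn1Cre, when totals replaced TMM scaling, and was 44.8% against GFAPCre with DESeq2.

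Rbp4Cre_TRAP had the lowest mean levels of the mouse groups at Ptn and Ptprz1. Against Syn1Cre, Ptn fell by 2.22 (SE 0.399, adjusted p = 0.00111) and Ptprz1 by 1.93 (SE 0.515, adjusted p = 0.0400), 2 of 7 tested members, where 1.92% of 10693 loci were called lower and 2.11% in either direction. All 4 Rbp4Cre_TRAP animals lay below all 6 Syn1Cre animals at both loci and at Ednrb, as at 13.3% of all loci in either direction. Ednrb, at -3.04, rested on 2 insertions and did not pass (adjusted p = 0.170). Without Syn1Cre animal 5 Ptn was at -1.81, Ptprz1 at -1.66 and Ednrb at -2.69 (adjusted p = 0.0117). These were 3 members called, where 465 of 11561 loci were called. The median over all loci was -0.31 under TMM scaling and -0.07 by totals, and the share of higher loci among those called went from 9.29% to 42.6% (32.9% with DESeq2). Tissue, RNA source and yield differ between these groups as well as the Cre line, and cannot be told apart from it. Astrocyte marker sums were 298 to 697 in Rbp4Cre_TRAP and 683 to 2096 in Syn1Cre, with 1 of 9 tested loci called lower (Slc1a3, -2.66). Neuron sums were 2072 to 3073 and 2320 to 2746, with 1 of 10 tested loci called lower (Gad1, -7.61, at a mean of 0 in Rbp4Cre_TRAP).

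The Frontflip construct in GFAPCre mice was compared with the GFAPCre group. Lrig1 rose by 1.5 (SE 0.233, adjusted p = 7.60e-04) and Ptn by 1.13 (SE 0.188, adjusted p = 0.00140), 2 of 8 tested members, where 1.5% of 10526 loci were called higher and 1.75% in either direction. All 3 Frontflip animals lay above all 6 GFAPCre animals at these loci and at Fgfr3, which did not pass. After TMM scaling the same held at Ntrk2, which did not pass either and whose IPM ranges overlapped, and groups did not overlap at 12% of all loci. Without GFAPCre animal 3 the count was 6 members, and without Frontflip_GFAPCre animal 3 it was 1. The background share of these fits is not given, so neither count is read as a result about the members. Of 10 astrocyte marker loci 3 were higher (Slc1a3 0.98, Glul 0.93 and Slc1a2 0.90), and so were Bcan (1.31) and Sdc4 (1.22), which encode a proteoglycan of the brain matrix and a heparan sulfate proteoglycan. The astrocyte sum was 1829 to 2643 in Frontflip_GFAPCre. Its own Cre-negative group held just 69 insertions at Ptn and 48 at Ntrk2 in all 3 animals together, and against it none of 6 tested members was called (edgeR; 3 at an unadjusted p under 0.05, none by DESeq2; 7% of 1286 loci called), with Ednrb at -1.18, Ntrk2 at -0.66 and Ptn at -0.59. Its median over all loci moved from 0.44 to -0.07 with totals, and the share of higher loci among those called from 72.2% to 20.5%. In Frontflip_GFAPCre against GFAPCre that share went from 85.9% to 75.5%.

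In BrokenHeart, where insertions were read from DNA, against C57bl6J, Fgfr2 was higher by 1.53 (SE 0.366, adjusted p = 0.00114) and Lrig1 by 1.39 (SE 0.278, adjusted p = 1.65e-04), 2 of 5 tested members, where 18.7% of 1879 loci were called higher and 39.9% in either direction, a share like that of the members. Fgfr2 and Lrig1 passed the low-count filter only through the BrokenHeart animals. In C57bl6J both lay below it, with mean levels of 44.5 and 77.2 IPM. The filter thus favoured a call of higher at these loci. Ptprz1 was at -0.67 (adjusted p = 0.0610). Without BrokenHeart animal 2 no member was called. The molecule read and the library method differ between the groups. The share of Lrig1 insertions that lay in the direction of the gene was 13.02% in Syn1Cre (10.6% to 18% by animal), 15.1% in GFAPCre and 20.8% in C57bl6J, against a median locus of 44.9% in Syn1Cre, with 1.5% of 7355 loci lower. In BrokenHeart it was 38.1% of 42 insertions, with 12.2% of 1265 loci lower. At Ptprz1 the lean was the other way, with 67.2% in gene direction in Syn1Cre and 76.8% in GFAPCre, and 48% of 25 insertions in BrokenHeart. Fgfr2 had 18.9% in Syn1Cre, Ntrk2 63.5% and Ptn 45.6%. In Syn1Cre, GFAPCre and C57bl6J alike, Lrig1 and Fgfr2 held mostly insertions against the gene and Ptprz1 and Ntrk2 mostly insertions along it. The direction was not compared by a test.

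Along the loci, insertions sat in few places. At Ptn the 5 kb bin from 5 to 10 kb inside the gene start held 15.6% of the Syn1Cre insertions and the 3 fullest bins 42.7%, all within the first 40 kb of the gene. At Ednrb 57.5% fell in the bin from 5 to 10 kb after the start, which was the fullest bin in every group with insertions there. At Ptprz1 the fullest bin lay within the first 35 kb of the gene in all groups of at least 24408 insertions an animal except BrokenHeart, where it lay just before the start. At Ntrk2 the fullest bin was 125 to 130 kb after the start in Syn1Cre (9.73%), GFAPCre, C57bl6J, Frontflip_GFAPCre and Rbp4Cre_TRAP, but 5 to 10 kb after it in both Cre-negative groups. Lrig1 was fullest at 30 to 35 kb in Syn1Cre, GFAPCre, their Cre-negative groups, C57bl6J and Frontflip_GFAPCre.

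Single TTAA sites recurred between animals. At 6:36775737-36775740 in Ptn, 34.4 kb after the start, insertions were found in 39 of 46 animals. Of the 637 sites used at Ptn, 141 were used in at least 23 animals, against 102 of 1267 at Ntrk2, 34 of 829 at Ptprz1, 17 of 425 at Lrig1, 15 of 201 at Ednrb and 8 of 199 at Fgfr1. No site at Fgfr2, Fgfr3 or Mdk recurred so widely. The leading sites of Ntrk2 (13:58933543-58933546, 127 kb after the start) and Lrig1 (6:94696496-94696499, 3.65 kb after it) were used in 38 animals each, and that of Ednrb (14:103838274-103838277, 5.43 kb after it) in 35.

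**Figure D4:**
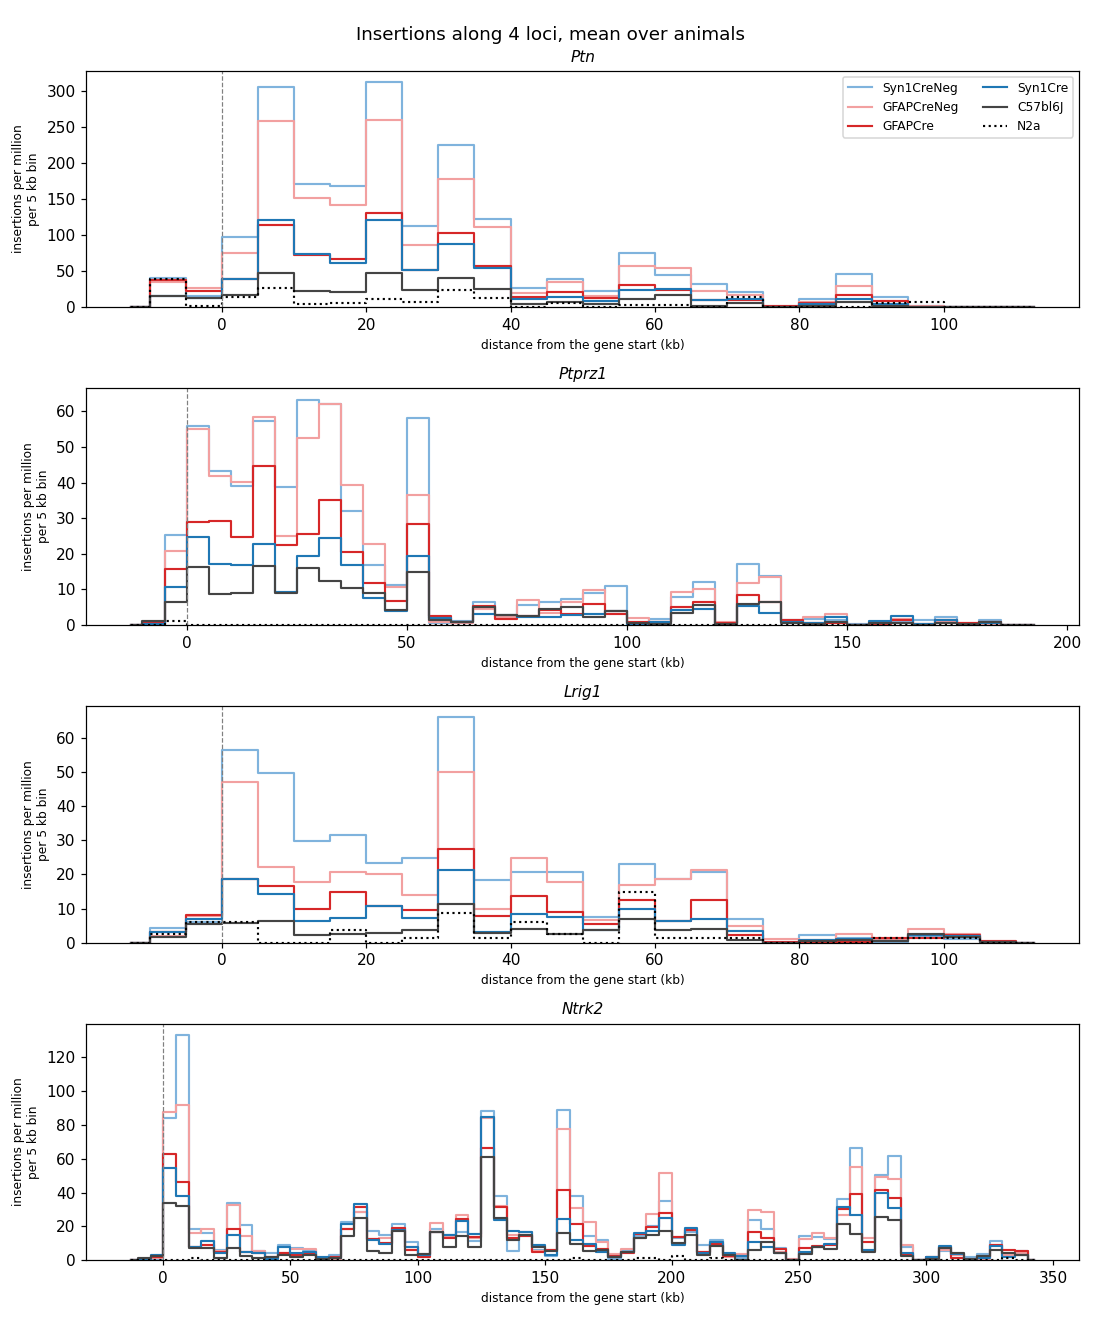
Insertions per 1000000 (IPM) in 5 kb bins along the Ptn, Ptprz1, Lrig1 and Ntrk2 loci by distance from the gene start (kb), as means over the animals of 5 mouse groups, with the N2a table dotted. The Cre-negative groups are above the Cre groups mainly in the bins that are full in both, and the Ntrk2 bin at 125 to 130 kb is nearly the same in Syn1Cre and Syn1CreNeg.

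The SP1 groups address where insertions lie when the label names this factor. They also differ from Syn1Cre in sequencing pools, since no pool held both, and Syn1Cre has no age in its labels. Yield was 86842 to 95331 insertions an animal at P10, 108965 to 577609 at P28 and 443158 to 1364948 in Syn1Cre. Age, pool and yield cannot be told apart from SP1 in these comparisons with Syn1Cre. Much of the genome was called in these comparisons. In SP1 at P28 against Syn1Cre 4 of 8 tested members were called, where 51.5% of 12053 loci were, and at P10 2 of 9, where 40.7% of 12787 were, so neither share exceeds the background. Lrig1 was higher at both ages: by 0.80 at P28 (SE 0.272, adjusted p = 0.0169) and by 0.97 at P10 (SE 0.328, adjusted p = 0.0202). Its levels were 401, 468, 389 and 249 IPM at P28 and 426, 512 and 325 at P10, against 87.4 to 320 in Syn1Cre. Syn1Cre animal 5, at 320, reached into the P28 range, and no Syn1Cre animal reached the P10 range. Fgfr1 was higher at P28 (0.59, SE 0.233, adjusted p = 0.0374) and Fgfr2 lower (-0.55, SE 0.212, adjusted p = 0.0307), calls that were lost in 8 of 17 and 9 of 16 alternatives. Ntrk2 was lower at both ages, by -0.44 at P28 (SE 0.164, adjusted p = 0.0268) and by -0.98 at P10 (SE 0.189, adjusted p = 1.56e-04).

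These values depend on scaling. Replacing TMM factors by totals moved the median over all loci from -0.06 to 0.42 at P28 and from -0.26 to 0.27 at P10, and the share of higher loci among those called from 50.9% to 80.4% and from 49.3% to 76.1%. Ntrk2 at P28 then became 0.05, in the other direction, and at P10 it was -0.45 (adjusted p = 0.0334), while Lrig1 was 1.30 and 1.52. Fgfr2 at P28 became -0.09 (adjusted p = 0.823) and Fgfr1 1.07 (adjusted p = 2.92e-04). Ptn (0.93, adjusted p = 0.00477), Ednrb (1.13, adjusted p = 0.00909) and Ptprz1 (0.74, adjusted p = 0.0163) were called higher at P28 with totals and not with TMM. Leaving out P28 animals 1, 2 or 3 left 2, 1 or 2 members called (share of all loci not given). Leaving out Syn1Cre animal 5 gave 6 of 8 tested members, where 6575 of 12372 loci were called. Ptn at 0.86, Ednrb at 1.00 and Ptprz1 at 0.54 were then called and Ntrk2 at -0.32 was not. At P10 without that animal Lrig1 was 1.25 and Ntrk2 -0.88, both still called, where 5501 of 12840 loci were called. The astrocyte marker sum was 1103 to 2375 at P28 and 913 to 1236 at P10, and its part was not tested. Ptn at P28, at 0.41 (SE 0.301, adjusted p = 0.257), was not called with TMM and all animals. Between ages, P28 against P10, Ptn was higher by 0.83 (SE 0.255, adjusted p = 0.0343), the only call among 6 tested members, where 11.2% of 3460 loci were called. Its P28 levels of 1781, 1578, 1768 and 755 overlapped the P10 levels of 841, 1136 and 629 through P28 animal 4. No member was called there under total scaling, which moved the share of higher loci among those called from 66.7% to 44.7%.

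Close to the starts Lrig1 stood out. Within 2.5 kb of the start its level was 4.67 ± 4.79 IPM (SD, n = 6) in Syn1Cre, 70.3 ± 10.7 (SD, n = 4) at P28 and 110 ± 27.9 (SD, n = 3) at P10, and no other group's mean was above 9.78. The groups did not overlap, as at 44.6% of all windows for P28 and 55.4% for P10. The change was 2.64 on the log2 scale at P28 (SE 0.348, adjusted p = 1.79e-07) and 2.95 at P10 (SE 0.4664, adjusted p = 3.63e-06), above 95.5% of 3680 windows and 95.4% of 3861 windows. The Lrig1 window passed the low-count filter only through the SP1 animals, with Syn1Cre at 13.5 IPM or less. The filter thus favoured a call of higher here, and the rank is among windows that passed the same filter. Of the 5 member windows tested at each age, 2 were called at P28 and 3 at P10, where 61.2% and 57.6% of all windows were called and 33.7% and 27.4% were higher. Lrig1 was called under every alternative run, with 1.45 to 4.08 at P28 and 1.60 to 4.74 at P10. At this scale totals moved the median window from 0.05 to 1.52 at P28 and from -0.14 to 1.64 at P10, and nearly all called windows became higher (97.8% and 96.6%, from 55.1% and 47.6%).

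The Lrig1 insertions lay upstream. In the 2 kb before the start there were 72 insertions at P28 at 9 sites, between 60.8 and 81.9 IPM in each animal, and 30 at P10 at 7 sites, between 78.0 and 127 IPM. In Syn1Cre there were 14 at 7 sites, at most 6.77 IPM in an animal. The fullest site, 315 bases before the start and so just outside the sequence printed for Lrig1 with its 2 GC boxes, took 18 of the 72 and 12 of the 30. The first 1 kb after the start held none in these 3 groups. The window made up 21.3% of all Lrig1 insertions at P28 and 26.3% at P10, against 2.84% in Syn1Cre, and 4.32% of the length of the locus. In 5 kb bins the fullest Lrig1 bin was the one before the start at both ages.

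At the other starts the direction depended on scaling. At Ntrk2 the window level was 20.5 ± 4.98 (SD, n = 6) in Syn1Cre, 33.0 ± 20.6 (SD, n = 4) at P28 and 18.5 ± 17.4 (SD, n = 3) at P10. TMM scaling made this a decrease, by 1.01 at P28 (SE 0.293, adjusted p = 0.00364) and by 1.85 at P10 (SE 0.533, adjusted p = 0.00407). With totals the P28 difference was 0.44, in the other direction, and the P10 difference -0.09. Ptn, whose start has no GC box, gave 41.9 ± 9.93, 101 ± 30.3 and 77.6 ± 24.2 in the same order, a difference of -0.83 at P10 under TMM (SE 0.302, adjusted p = 0.0194) that became 0.94 with totals (adjusted p = 0.0249). Ptprz1, with as many GC boxes as Lrig1, had level means of 22.3, 62.3 and 44.8 and was not called at either age with TMM, at -0.29 and -0.74. With totals it was 1.23 higher at P28 (adjusted p = 0.00179). At P28 the Ptn start likewise went from -0.32, not called, to 1.18 (adjusted p = 7.69e-05), and the Ednrb start from 0.08, not called, to 1.54 (adjusted p = 0.00137), with level means at Ednrb of 16.5 in Syn1Cre, 46.2 at P28 and 26.2 at P10. In Syn1Cre against GFAPCre none of 4 tested windows was called (edgeR; 0 at an unadjusted p under 0.05, 0 by DESeq2; 1.87% of 2198 windows called, 46.3% of them higher, 68.4% with totals and 73.9% with DESeq2). Without Syn1Cre animal 5 the Ednrb window was lower in Syn1Cre than in GFAPCre (-0.74, adjusted p = 0.0434). No SP1 direction is read for the Ntrk2, Ptn, Ptprz1 or Ednrb starts, since the call or the direction changed with scaling. Every SP1 comparison uses the same 6 Syn1Cre animals.

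**Figure D5:**
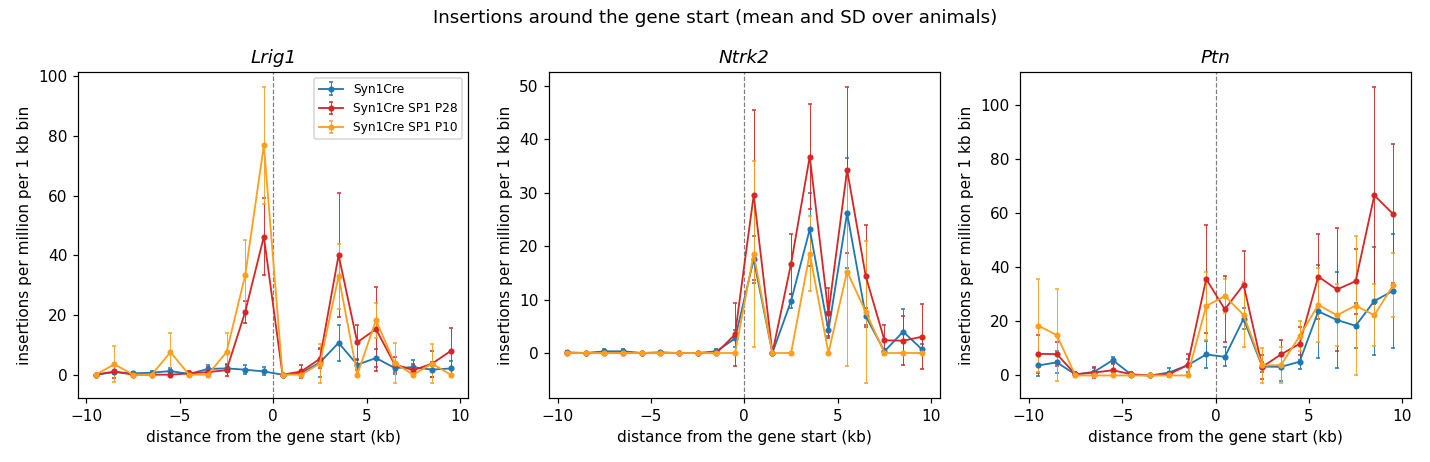
Insertions per 1000000 (IPM) in 1 kb bins from 10 kb before to 10 kb after the starts of Lrig1, Ntrk2 and Ptn (mean and SD over animals) in Syn1Cre and both SP1 groups. The SP1 groups have a peak in the kb before the Lrig1 start where Syn1Cre is near 0, and no bin of that kind at Ntrk2.

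The other genes of the members' pathways were counted against the same backgrounds. Of the FGF pathway list, 14 of 20 loci were tested in Syn1Cre against Syn1CreNeg, and 3 were lower and 3 higher, where 31.1% of all loci were called and 17.5% lower. The lower ones included Etv5 (-0.68), a transcription factor induced by FGF, and Spry2 (-0.62), a feedback inhibitor, and the higher ones Flrt3 (0.42) and Flrt2 (0.64), membrane proteins that can bind FGF receptors. Of 6 tested neurotrophin loci 1 was lower (Shc3, an adaptor, -0.43). Of 2 tested endothelin loci both were higher, Ece1 (0.59) and Ece2 (0.83), which encode endothelin-converting enzymes, opposite to the receptor Ednrb. Of 12 pleiotrophin and midkine partners 5 were lower and 2 higher, with Sdc4 (-1.62) and Bcan (-0.97) the lowest and Sdc3 (0.91) and the receptor kinase gene Alk (0.42) higher. In the Lrig and ErbB-Met family, Egfr was lower (-1.30) and Met (0.57) and Erbb4 (1.95) higher, of 4 tested.

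In GFAPCre against GFAPCreNeg 8.15% of all loci were called. Of 15 FGF loci Fgf1 was lower (-0.39), of 12 partners Sdc4 (-1.21) and the adhesion gene Nrcam (-0.45) were lower, and of 5 Lrig and ErbB-Met loci Egfr was lower (-1.07). None of 6 neurotrophin and none of 3 endothelin loci was called. In Syn1Cre against GFAPCre the calls were Ece2 (0.68) of 4 endothelin loci and Erbb4 of 6 in its family, with none of 15 FGF, 8 neurotrophin or 13 partner loci called (edgeR). Against the broad SP1 background, 3 FGF loci were higher and 7 lower of 16 at P28, and 4 higher and 9 lower of 16 at P10. In the Lrig and ErbB-Met family 1 locus was higher and 2 lower of 7 at P28, and 1 higher and 4 lower of 7 at P10. The higher one was Erbb3, the receptor partner of Erbb2, at 2.01 and 2.17. The lowest were Erbb4 (-1.43) and Met (-1.35) at P28, and Lrig2 (-2.875) and Egfr (-1.21) at P10. Lrig2 rested on few insertions at P10, with a scaled mean of 2.98, SD 5.16, and an SE of 1.01 for its difference. These values and counts use TMM scaling, and those with totals are not given for the lists. Over all loci 51.5% were called at P28 and 40.7% at P10.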

How the data were processed

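The authors deposited 1 headerless table per animal, and 1 for N2a, with 1 line per insertion and its read count, a whole number of at least 1; the 194 GEO samples are sequencing pools that fill these 47 tables, per the labels. The submitters' processing notes name mm10, Novoalign and Bowtie2 without versions or roles. Starts were read as 0-based and BrokenHeart starts moved by 1 base, after which 97.3% of its insertions in promoter sequences lay on a TTAA. Lines, not reads, were counted, so a site seen in several cortex pieces counts several times and intervals cover counting error only.

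Counts per locus were tested with edgeR 4.0.16 in R 4.3.3 (quasi-likelihood test, TMM factors on total insertions, filterByExpr, the 2 groups compared in each model, animals as replicates, Benjamini-Hochberg over all loci, threshold 0.05), in 13 comparisons of loci and 3 of windows within 2.5 kb of RefSeq starts. DESeq2 1.42.0, total scaling, no low-count filter, distinct positions, gene bodies, narrower windows, thinning, blocks and each animal left out were the alternatives, and 2 were added after seeing the data (comparisons within label layouts and the interaction of Cre with line). Each model was tested on simulated counts with 200 loci changed 3-fold: it recovered 80% in Syn1Cre against Syn1CreNeg, 82.5% in GFAPCre against GFAPCreNeg, 89.5% in Syn1Cre against GFAPCre, but 49.5% in SP1 at P10 against Syn1Cre and 24.5% in Rbp4Cre_TRAP against Syn1Cre. Of the calls made on these simulated counts, 16.9% were false in Rbp4Cre_TRAP against Syn1Cre and 9.62% in C57bl6J against GFAPCre. In the other models the false share ran from 2.23% to 9.09%. Exons and introns are not annotated here. Python 3.11.15 with pandas 2.3.3 was used for counting and figures.

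Members were tested in every comparison in which they passed the low-count filter, and in some comparisons the text names only part of those tested. From each other list at most the 2 highest and 2 lowest called loci are named. Overlapping neighbours and the 2 loci most like each member are named as well. For Ptn 1 of these is not reported here. The members and lists were chosen with earlier results of these data known. Replicate numbers did not pair animals: the correlation of same-numbered animals' deviations ran from -0.22 to 0.16, and no comparison had all above 0.1. Nothing in the labels gives litters, so p-values measure the spread between these animals.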

Additional observations from a re-analysis of the deposited data

Results flagged for a closer look

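In groups of 4 to 6 animals, 15 of 54 group values had an animal far from the rest of its group by Dixon's criterion, where chance gives about 1 in 20 groups. Syn1Cre animal 5 was high at 6 loci: Ptn with 1760 IPM (group median 592.5), Ntrk2 with 1158 (837.7), Ptprz1 with 496.4 (213.1), Lrig1 with 320.4 (131.1), Ednrb with 227.9 (64.5) and Fgfr3 with 22.57 (9.81). GFAPCreNeg animal 6 was high at Ptn with 2831 IPM (group median 1367), Ntrk2 with 1461 (1223), Lrig1 with 509.5 (290.3) and Ednrb with 389.3 (192.9). The astrocyte marker loci were high in the same animals, at 2096 and 3172 IPM.

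GFAPCre animal 3 was high at Fgfr3 with 23.32 IPM (group median 11.87), and Syn1CreNeg animal 1 at Fgfr1 with 158.2 (100.7). In Rbp4Cre_TRAP, animal 2 was high at Ntrk2 with 893.8 IPM (group median 679.0), and animal 3 had 49.92 at Fgfr3 and 24.96 at Mdk where the other 3 animals had 0, each from at most 2 insertions.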

How the results depend on the processing

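Of 37 member differences past the threshold, 11 stayed past it under every alternative run: Fgfr1, Lrig1, Ptn and Ptprz1 in Syn1Cre against Syn1CreNeg, Ednrb and Ptn in C57bl6J against GFAPCre, Ptn in Rbp4Cre_TRAP, Lrig1 in Frontflip_GFAPCre, the Lrig1 start in SP1 at both ages and Ntrk2 at P10. The Lrig1 start passed the low-count filter only through the SP1 animals. The sign turned in 4: Fgfr2 in Syn1Cre against Syn1CreNeg to 0.22 within label layout 1 to 3, and, with total scaling, Ntrk2 at P28 to 0.053, the Ntrk2 start at P28 to 0.44 and the Ptn start at P10 to 0.94. Of 72 differences that did not pass, 30 turned under at least 1 alternative. The cause was not tested. Counting each position a single time left 84 of 99 group means within 1 SD.

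Counts of members called are given in this section without the share of all loci called in the same fit. They show how far a setting moves the count and are not results about the members. Counts of members called changed by over 1.5 times as follows. With DESeq2 they were 2 in P28 against Syn1Cre, 1 in P10 against Syn1Cre, 0 in P28 against P10 and 3 in C57bl6J against GFAPCre. With total scaling they were 0 in P28 against P10, 1 in Rbp4Cre_TRAP, 2 in Frontflip_GFAPCre against its Cre-negative group and 4 for the P28 starts. With distinct positions they were 0 in P28 against P10, 5 in BrokenHeart, 4 in Frontflip_GFAPCre against GFAPCre, 2 against its Cre-negative group, and 1 each for the P28 and P10 starts. With gene bodies alone they were 0 in P28 against P10 and 1 in Rbp4Cre_TRAP, without the low-count filter 5 in Rbp4Cre_TRAP and 4 in Frontflip_GFAPCre against GFAPCre, and thinned to the shallowest depth 0 in BrokenHeart and 1 in Rbp4Cre_TRAP. The pool block gave 0 in GFAPCre against GFAPCreNeg and in P28 against P10, and Syn1Cre animals 1 to 3 alone gave 6 against GFAPCre.

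Replicate numbers were not taken as pairs. With the replicate number as a block the counts were 4 in P10 against Syn1Cre, 3 in P28 against P10, 2 in C57bl6J against Syn1Cre, 1 in BrokenHeart and 4 in Frontflip_GFAPCre against GFAPCre, and elsewhere they stayed within 1.5 times.

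Leaving out 1 animal at a time gave 0 to 5 members in Syn1Cre against GFAPCre, 6 to 7 in Syn1Cre against Syn1CreNeg, 4 to 7 in GFAPCre against GFAPCreNeg, 1 to 6 in P28 and 1 to 2 in P10 against Syn1Cre, 0 to 3 in P28 against P10, 0 to 0 in C57bl6J against Syn1Cre, 3 to 6 against GFAPCre, 0 to 2 in BrokenHeart, 1 to 3 in Rbp4Cre_TRAP, 1 to 6 in Frontflip_GFAPCre against GFAPCre, 0 to 2 against its Cre-negative group and 0 to 3 between Cre-negative groups. For starts it gave 0 to 1 in Syn1Cre against GFAPCre and 1 to 3 at each SP1 age. Where 1 C57bl6J animal is left out, the lone sample is assumed to vary like the other group. Depth limits Frontflip_GFAPCreNeg and also Rbp4Cre_TRAP, BrokenHeart and SP1 at P10, where the small loci hold few insertions or none.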
